A study of Mus musculus with 3 samples.

Results

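MHC class II genes encode the proteins with which a cell shows peptides from outside to helper T cells, and 6 of them were followed across the cell classes of the mouse retina at 3 ages. The genes were Cd74, H2-Aa, H2-Ab1, H2-Eb1, H2-DMa and Ciita, chosen by name as 6 of the 32285 genes in the count matrices, and each of them had counts. The data were 3 droplet single-cell RNA libraries of retinas from C57BL/6JRj mice without genetic modification or treatment: a young library at 3 months, an adult library at 12 months and an old library at 23 months. At each age the retinas of a pair of mice had been pooled and cells carrying CD31, an endothelial surface protein, had been enriched with magnetic beads. Every library therefore stood for 1 pool, and the enrichment as well as the tissue set how many cells of each class were present.

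A class II molecule is a pair of chains, and H2-Aa and H2-Ab1 encode the α and β chain of the I-A molecule, while H2-Eb1 encodes the β chain of I-E. The gene of the α chain of I-E, H2-Ea, was not among the genes of the count matrices. Counts of H2-Eb1 therefore show a transcript and not an I-E molecule. Cd74 encodes the invariant chain, which holds the newly made pair and blocks its groove until it reaches the endosome, and H2-DMa encodes a chain of the H2-DM complex, which exchanges the remnant of the invariant chain for a peptide. Ciita encodes the transactivator that switches the whole family on. B cells, dendritic cells and macrophages carry the molecules constantly, and other cells, endothelium among them, can gain them when interferon gamma induces Ciita.

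In GENCODE M21 on GRCm38, H2-DMa (ENSMUSG00000037649, chr17:34119541-34139101, plus strand), H2-Ab1 (ENSMUSG00000073421, chr17:34257689-34269419, plus strand), H2-Aa (ENSMUSG00000036594, chr17:34282744-34287823, minus strand) and H2-Eb1 (ENSMUSG00000060586, chr17:34305867-34316674, plus strand) lie together in the major histocompatibility complex.

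Ciita acts through factors bound at a pair of short promoter elements, the X box, bound by the RFX complex, and the Y box, bound by NF-Y. The promoters of an I-A and an I-E chain are shown because the pair can be read in both. The 150 bases before the RefSeq start are printed from 5′ to 3′ on the gene's strand (GRCm38.p6), with capitals marking the letters GCAAC, the core of the X box, and GATTGG, the core of the Y box.
H2-Aa, chr17:34287824-34287973, minus strand: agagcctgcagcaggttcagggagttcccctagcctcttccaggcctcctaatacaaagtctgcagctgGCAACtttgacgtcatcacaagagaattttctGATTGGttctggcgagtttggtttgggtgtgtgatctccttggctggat
H2-Eb1, chr17:34305717-34305866, plus strand: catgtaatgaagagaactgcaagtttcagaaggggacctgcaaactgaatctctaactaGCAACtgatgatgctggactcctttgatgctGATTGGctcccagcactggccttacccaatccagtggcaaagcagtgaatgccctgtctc
In H2-Aa the first letter of GCAAC lay at -81 and that of GATTGG at -49 from the start, with 27 bases between the elements, and in H2-Eb1 they lay at -91 and -60, with 26 bases between. Of 32851 mouse promoter windows of 300 bases, 35.2% held GCAAC and 16.1% held GATTGG on either strand, whereas 142 windows (0.432%) held GCAAC followed by GATTGG on one strand with 10 to 35 bases between. RefSeq promoters were matched for 3 members, H2-Aa, H2-Eb1 and H2-DMa, and 2 of them held the pair. It was also in the windows of H2-Oa, H2-Ob and H2-Eb2, 3 of the 5 other class II chain and loading genes, and in 0 of the 23 further pathway genes with a promoter. The spacing range was set after the sequences had been read, and a match of letters is a description and not a bound site.

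The libraries held 8485 cell barcodes, of which 5360 (1706 young, 1957 adult and 1697 old) remained after cut-offs for gene number and mitochondrial share and removal of 40 called doublets. Their median UMI counts were 6355.5, 5964 and 6296, a UMI being a tag that counts 1 captured transcript. Cells were clustered without the class II genes, and clusters were named from marker genes, hence "-like". Endothelial-like cells numbered 438 at 3 months, 424 at 12 months and 402 at 23 months, and a further 311, 252 and 226 droplets carried both endothelial and pericyte markers and were kept as a mixed class. At most 3 barcodes were shared by any pair of libraries, 2 of them among kept cells. With 1 library per age, no test or standard error could be given, and all intervals are exact 95% intervals that cover counting error only. Levels are given as CPM, the UMIs of a gene over all UMIs of the class on the usual scale of that unit, and need no division by gene length because each transcript gives 1 tag at its 3′ end.

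Class II transcripts were concentrated in B cell-like cells. The 143 B cell-like cells were 2.67% of all kept cells and gave 1.43% of all UMIs, yet they held 13474 of the 15518 UMIs of the 6 genes, or 86.8%. Their share was 66.0% at 3 months, 89.9% at 12 months and 88.0% at 23 months, whose 10, 76 and 57 B cell-like cells made up 0.586, 3.88 and 3.36% of cells. Across all cells the class II sum therefore stood at 107 CPM at 3 months, 488 at 12 months and 505 at 23 months. The members divided differently between classes, since B cell-like cells held 90.4% of all Cd74 UMIs, 64.6% of those of Ciita and 56.1% of those of H2-DMa.

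**Figure D1:**
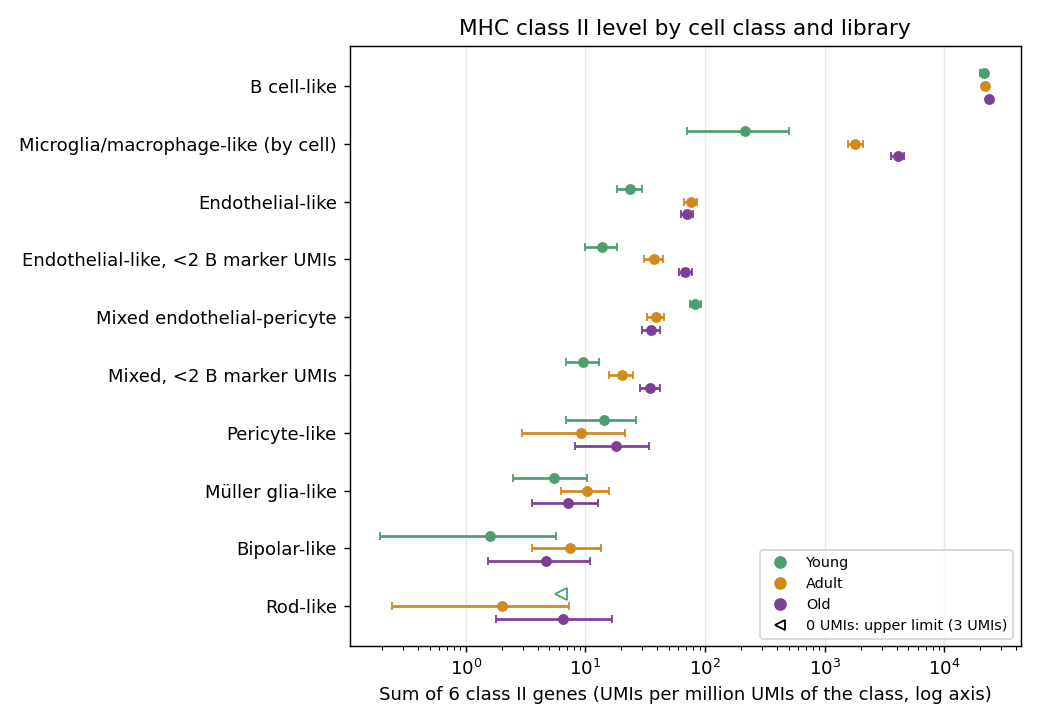
Sum of the 6 class II genes in CPM (log axis) for 10 cell classes in the young, adult and old library, with 95% counting intervals; the open arrow is the upper limit where no UMI was found. B cell-like cells lie between 21333 and 23561, endothelial-like cells between 23.5 and 75.7, and rod-like cells at or below 6.50.

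Over the 3 libraries Cd74 stood at 12279 CPM (11999 to 12563) in B cell-like cells and at 1109 (964 to 1271) in 19 microglia- or macrophage-like cells. It stood at 19.6 (17 to 22.6) in endothelial-like cells, or 11.4 (9.40 to 13.7) once 6 droplets with B cell transcripts, described below, were left out. Mixed endothelial-pericyte droplets, filtered in the same way, had 2.74 (1.88 to 3.87). These intervals did not overlap one another, but that of the mixed droplets overlapped the next, and rod-like cells at 0.956 (0.116 to 3.45), pericyte-like cells at 0.573 (0.0145 to 3.19) and Müller glia-like cells at 0.389 (0.0471 to 1.40) could not be put in order. Rods are not known to make class II molecules and served as the measure of free RNA. Their class II sum was 0 UMIs at 3 months (up to 6.25 CPM with 3 UMIs), 2 UMIs or 2.01 CPM (0.243 to 7.25) at 12 months and 4 UMIs or 6.50 CPM (1.77 to 16.7) at 23 months. Of the 9 B cell markers rod-like cells held 0, 3 and 2 UMIs in turn, in Igkc, Ly6d and Ms4a1, with the other 6 markers at 0.

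In B cell-like cells the invariant chain was the most abundant member, and its gene and that of the transactivator lie outside the histocompatibility complex, Cd74 (ENSMUSG00000024610) at chr18:60803848-60812652 and Ciita (ENSMUSG00000022504) at chr16:10480059-10528418, both on the plus strand. Cd74 stood at 10989 CPM (10041 to 12002) at 3 months, 11854 (11472 to 12246) at 12 months and 13043 (12596 to 13502) at 23 months. Its median was 48.5, 47 and 52 UMIs per cell, and 1 of the 143 cells had none. Of the chain genes, H2-Aa stood at 4182, 3749 and 3724 CPM, H2-Ab1 at 2736, 2805 and 3269 CPM, and H2-Eb1 at 2870, 2961 and 2981 CPM. Cd74 and all of these chains were found together in 133 of 143 cells (93.0%). H2-DMa was far lower, at 467, 437 and 430 CPM, and the transactivator Ciita lowest, with 4, 19 and 28 UMIs or 89.0, 61.9 and 114 CPM.

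The adult and old B cell-like cells, the libraries with enough of them to compare, differed little. Old over adult, the ratio of levels was 1.10 (1.05 to 1.15) for Cd74, 1.17 (1.06 to 1.28) for H2-Ab1 and 1.08 (1.04 to 1.12) for the sum. It was 0.993 (0.910 to 1.08) for H2-Aa, 1.01 (0.912 to 1.11) for H2-Eb1 and 0.986 (0.757 to 1.28) for H2-DMa, all of which spanned 1. Ciita had the largest ratio, 1.84 (0.990 to 3.48), on few counts. Ciita was the only 1 of the 6 members higher by 1.5 times or more, against 12.6% of the 3224 genes with at least 20 UMIs over both libraries, and the members' median ratio of 1.05 lay near that of all these genes, 1.01. The 10 young cells gave ratios of adult to young between 0.696 and 1.08.

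B cell-like cells fell into a pair of clusters at a finer resolution, and the I-A and I-E chain genes differed between them more than the invariant chain did. The larger cluster, with 97 cells (9 young, 50 adult, 38 old), was high in Ighd, the IgD heavy chain of mature B cells. The smaller one, with 46 cells (1, 26, 19), was high in Vpreb3, Ms4a1 and Ighm. Per cell and 10000 UMIs, H2-Aa had a median of 52.3 at 12 months and 44.2 at 23 months in the Ighd-led cells, and of 13.3 and 19.6 in the Vpreb3-led cells. The ratio of levels, Ighd-led over Vpreb3-led, was 2.75 (2.34 to 3.23) at 12 months and 2.21 (1.87 to 2.63) at 23 months for H2-Aa. For H2-Eb1 it was 2.21 (1.87 to 2.62) and 2.40 (1.98 to 2.93), and for H2-Ab1 1.99 (1.69 to 2.36) and 2.06 (1.73 to 2.46). Cd74 differed little, at 1.18 (1.10 to 1.26) at 12 months and 0.989 (0.919 to 1.07) at 23 months. H2-DMa was at 1.81 (1.20 to 2.82) at 12 months and 1.12 (0.734 to 1.75) at 23 months. The genes of the I-A and I-E chains were thus lower, relative to Cd74, in the Vpreb3-led cells of both libraries, while Cd79a, a part of the B cell receptor, went the other way, at 0.559 and 0.576. The clusters are defined by gene counts of the same cells, though not by the class II genes, and this comparison was chosen after the values had been seen. One old Vpreb3-led cell stood apart with 215 Cd74 UMIs, or 613 per 10000.

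**Figure D2:**
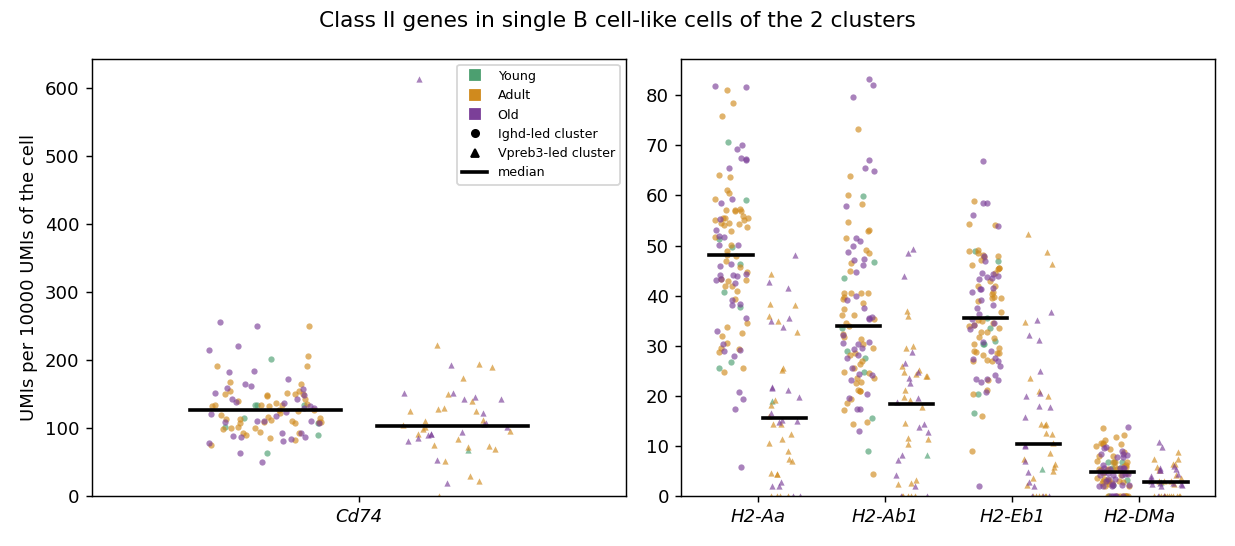
UMIs per 10000 UMIs of the cell for Cd74 (left) and for H2-Aa, H2-Ab1, H2-Eb1 and H2-DMa (right) in each of the 143 B cell-like cells, by cluster (circles, Ighd-led; triangles, Vpreb3-led), coloured by library, with the median of each cluster as a bar. The medians of the 3 chain genes are lower in the Vpreb3-led cells, whereas the Cd74 values largely overlap.

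Among the other immune cells, which were typed one by one because they shared a cluster of 53 cells, high class II counts were held by few, though 14 of 19 microglia- or macrophage-like and 9 of 25 T or NK-like cells had at least 1 class II UMI. The 19 microglia- or macrophage-like cells had class II sums of 5, 190 and 243 UMIs in the young, adult and old library. Of these, 9 cells carried P2ry12 or Tmem119, genes of resident microglia, and held 12 class II UMIs in all, 11 of them H2-DMa and 0 Cd74. The 10 cells without either gene held 426 class II UMIs, 208 of them Cd74, and their spread was wide, from 0 to 173 UMIs per cell. In 4 of them, 2 adult and 2 old, the sum reached 5 or more, with 165, 13, 69 and 173 UMIs. These 4 cells had between 48 and 493 UMIs of Lyz2, a lysozyme of macrophages and monocytes, and 0 UMIs of C1qa, a complement gene of microglia and tissue macrophages. Of the other 6 cells without P2ry12 and Tmem119, 4 were likewise at 0 C1qa, with 19 to 127 Lyz2 UMIs and class II sums of 0 to 4. The division by P2ry12 and Tmem119 was made after the values had been seen, and these 4 cells held most of the class total. One adult dendritic-like cell held 103 class II UMIs, with 9 B cell marker UMIs, 1 of Flt3 and 0 of Cd209a and Zbtb46, genes of dendritic cells. One old cell of the cluster had 137 B cell marker UMIs and 107 class II UMIs and was not among the 143 B cell-like cells. The 25 T or NK-like cells held 11 class II UMIs in all, and 3 neutrophil-like cells and 4 cells of no type held 0.

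In endothelial-like cells the class II sum was higher in the adult and old libraries than in the young. It was 76 UMIs or 23.5 CPM (18.5 to 29.4) at 3 months, 254 UMIs or 75.7 CPM (66.7 to 85.6) at 12 months and 255 UMIs or 70.8 CPM (62.4 to 80.1) at 23 months. Old over young the ratio was 3.01 (2.32 to 3.94), adult over young 3.22 (2.48 to 4.21), and old over adult 0.936 (0.783 to 1.12). By member, Cd74 held 21, 98 and 81 UMIs, H2-Ab1 19, 65 and 83, H2-Aa 13, 33 and 33, H2-Eb1 15, 41 and 37, H2-DMa 6, 16 and 14, and Ciita 2, 1 and 7. Of genes with at least 20 UMIs over the pair of libraries, 7.08% of 10627 were higher by 1.5 times or more in the old and 5.11% of 10575 in the adult library. Of the 6 members 5 reached that limit, 4 of them only with the UMIs of the later library, so no count of members is set against these shares. Old endothelial-like cells lay 10.9 times (4.2 to 40.3) above old rod-like cells. Young rod-like cells had no UMI, and young endothelial-like cells lay 3.76-fold above the level that 3 UMIs would give there, with an exact lower limit of 2.99 for the ratio itself. Without droplets that carried B cell transcripts, described next, these values were 2.18 and 1.70, and with every cell thinned to 2000 UMIs the first was 0.986. With barcodes of fewer than 500 genes in place of rod-like cells, the ratio was 2.66 (1.74 to 4.22) for old, 6.13 (3.65 to 11.1) for adult and 0.834 (0.504 to 1.44) for young endothelial-like cells, and 19 of the 20 UMIs of the young barcodes came from 1 of them.

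B cell transcripts moved with this result in the adult library and were examined cell by cell. The 9 B cell markers gave 20, 97 and 24 UMIs in young, adult and old endothelial-like cells, or 6.19, 28.9 and 6.67 CPM, so that their ratio was 4.67 (2.86 to 7.98) adult over young and 1.08 (0.570 to 2.06) old over young. Igkc was also found outside B cell-like cells, with 159 UMIs in 36 adult lens-like cells that held 2 class II UMIs, and it gave 32 of the 97 UMIs in adult endothelial-like cells. In the young cells Igkc and Pax5 were at 0, and Pax5 and Bank1 were at 0 in the old cells. A single droplet held 42.1% of the young and 45.3% of the adult class II sum, but the highest old droplet held 6.67%. That adult droplet had 115 class II and 61 B cell marker UMIs beside 98 UMIs of Cldn5, the claudin of endothelial junctions. Droplets with 2 or more B cell marker UMIs numbered 1, 4 and 1 among endothelial-like cells and held 32, 131 and 9 class II UMIs. In the mixed endothelial-pericyte class there were 5, 2 and 1 such droplets with 330, 74 and 3 class II UMIs. The 7 droplets with the most class II UMIs in these classes, between 32 and 115, each carried 16 to 118 B cell marker UMIs, and the next 5, all old and with 14 to 17 class II UMIs, carried 0 or 1.

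**Figure D3:**
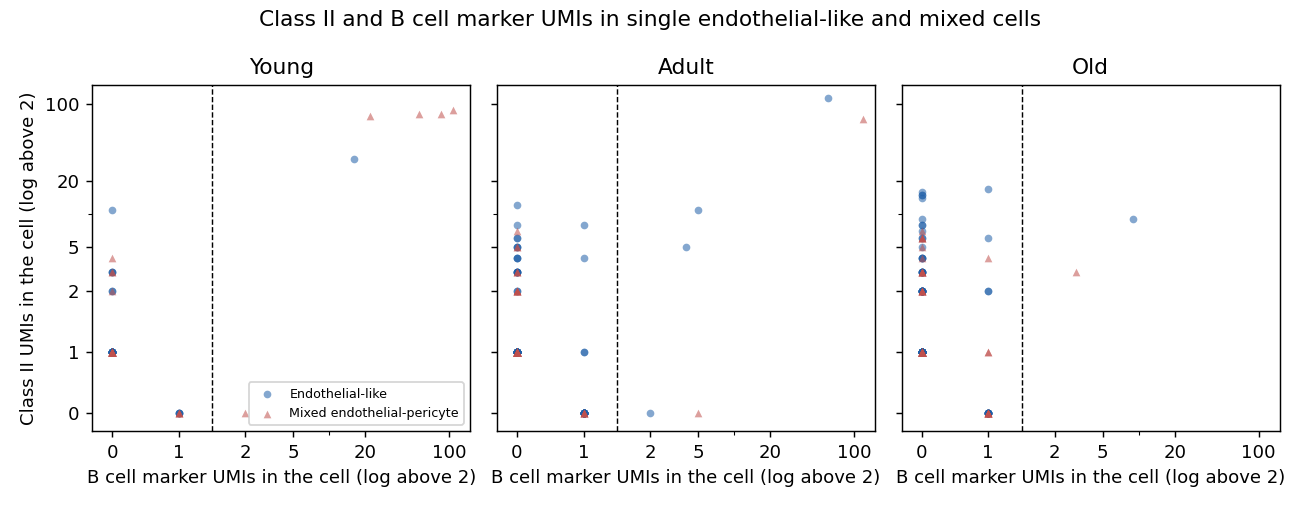
Class II UMIs against B cell marker UMIs in single endothelial-like (circles) and mixed endothelial-pericyte (triangles) cells of each library, both axes linear to 2 and logarithmic above; cells with 0 on both axes are not drawn and the dashed line marks the limit of 2 B cell marker UMIs. The young and adult libraries have isolated droplets high on both axes, up to 115 class II UMIs, and the old cells with 14 to 17 class II UMIs lie at 0 or 1 B cell marker UMI.

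With the droplets of 2 or more B cell marker UMIs left out, a filter chosen after these values had been seen, the levels of the sum no longer overlapped between any of the ages. The sum was 44 UMIs or 13.7 CPM (9.92 to 18.3) in 437 young cells, 123 UMIs or 37.5 CPM (31.1 to 44.7) in 420 adult cells and 246 UMIs or 68.5 CPM (60.2 to 77.6) in 401 old cells. Old over young the ratio became 5.01 (3.63 to 7.08), adult over young 2.74 (1.93 to 3.96), and old over adult 1.83 (1.47 to 2.29). The B cell markers left in these cells were 4, 25 and 15 UMIs, at most 1 per cell, and their part in the remaining class II UMIs was not tested.

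Among the members, the chain genes and the invariant chain gave the most counts. In the filtered endothelial-like cells Cd74 had 3 UMIs at 3 months, 34 at 12 months and 78 at 23 months, or 0.931 CPM (0.192 to 2.72), 10.4 (7.17 to 14.5) and 21.7 (17.2 to 27.1), and the intervals did not overlap. Old over young the ratio was 23.3 (7.69 to 116) and rested on the 3 young UMIs, and in all endothelial-like cells it was 3.46 (2.12 to 5.89), beside 3.92 (2.36 to 6.84) for H2-Ab1. H2-Ab1 had 17, 39 and 83 UMIs, or 5.28, 11.9 and 23.1 CPM, and a ratio of 4.38 (2.58 to 7.87). The partner chain of H2-Ab1, H2-Aa, had 8, 13 and 33 UMIs, or 2.48, 3.96 and 9.19 CPM, and a ratio of 3.70 (1.68 to 9.27). The I-E chain H2-Eb1 had 9, 23 and 32 UMIs, or 2.79, 7.0 and 8.91 CPM, and a ratio of 3.19 (1.49 to 7.60).

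The loading and regulatory members gave too few counts to place. H2-DMa had 6, 13 and 13 UMIs, with an old to young ratio of 1.94 (0.689 to 6.24) that spanned 1. Ciita had 1, 1 and 7 UMIs, each in a different cell, with a ratio of 6.28 (0.807 to 283). In these cells 7.09% of 10620 genes were higher by 1.5 times or more in the old and 5.23% of 10555 genes in the adult library than in the young, with median ratios of 1.01 and 1.03, and no member reached the limit of 20 UMIs without those of the later library. Old over adult, Cd74 at 2.10 (1.39 to 3.24), H2-Aa at 2.32 (1.19 to 4.80) and H2-Ab1 at 1.95 (1.31 to 2.92) lay above 1, and H2-Eb1 at 1.27 (0.721 to 2.28) and H2-DMa at 0.914 (0.390 to 2.14) spanned it.

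**Figure D4:**
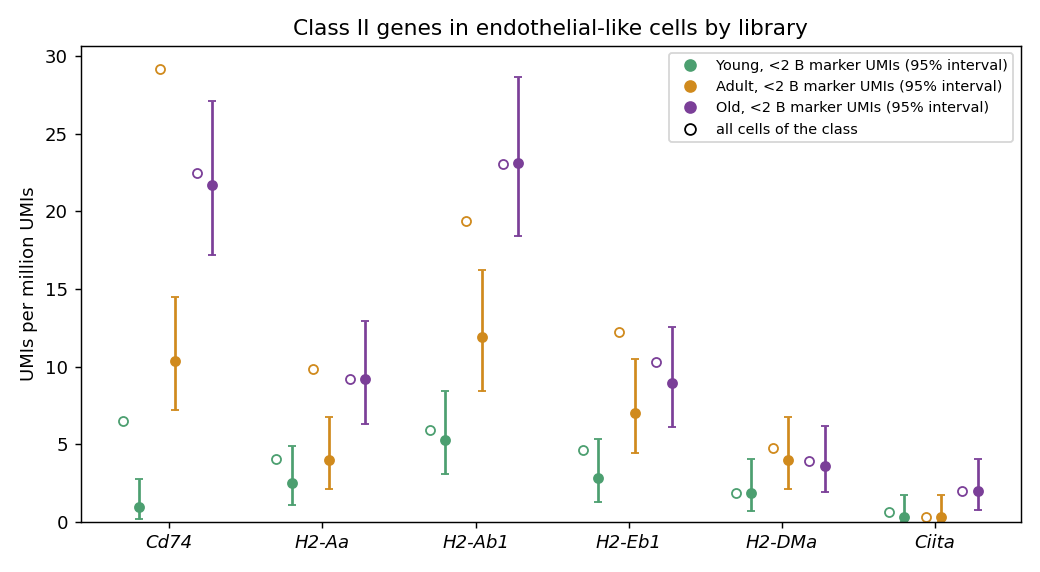
CPM of each class II gene in endothelial-like cells of the young, adult and old library, as filled points with 95% counting intervals for cells with fewer than 2 B cell marker UMIs and as open points for all cells of the class. The adult Cd74 value falls from 29.2 to 10.4 with the filter, and the old value is 22.5 without and 21.7 with it.

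In the mixed endothelial-pericyte droplets the direction turned with the same filter. Over all droplets the sum was lower at the later ages, with 372 UMIs or 83.1 CPM (74.9 to 92.0) at 3 months, 151 UMIs or 38.9 CPM at 12 months and 123 UMIs or 35.5 CPM at 23 months, a ratio of 0.427 (0.345 to 0.525) old over young. Without the 8 droplets of 2 or more B cell marker UMIs it was 42 UMIs or 9.58 CPM (6.91 to 13), 77 UMIs or 20.1 CPM (15.9 to 25.1) and 120 UMIs or 34.8 CPM (28.9 to 41.6), a ratio of 3.63 (2.54 to 5.29). H2-Ab1 had 6, 19 and 35 of these UMIs, and Cd74 had 4, 5 and 23. Taking endothelial-like and mixed cells together, the ratio of the sum without the filter was 0.920 old over young and 0.963 adult over young. With the filter the ratio of the sum was 4.60 (3.63 to 5.89) old over young, 2.49 (1.92 to 3.24) adult over young and 1.85 (1.55 to 2.21) old over adult.

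The make-up of the class II UMIs differed between classes. In B cell-like cells Cd74 gave 54.5% of them, H2-Aa 16.7%, H2-Ab1 13.3%, H2-Eb1 13.2%, H2-DMa 1.94% and Ciita 0.379%. In the filtered endothelial-like cells of all libraries H2-Ab1 led with 33.7%, and Cd74 gave 27.8%, H2-Eb1 15.5%, H2-Aa 13.1%, H2-DMa 7.75% and Ciita 2.18%. H2-Ab1 also had the most UMIs in each library, whereas Cd74 gave 6.82% at 3 months, 27.6% at 12 months and 31.7% at 23 months. For each H2-Ab1 UMI there were 4.02 (3.29 to 4.93) Cd74 UMIs in 3-month, 4.23 (3.92 to 4.56) in 12-month and 3.99 (3.69 to 4.32) in 23-month B cell-like cells. In filtered endothelial-like cells there were 0.176 (0.0331 to 0.610), 0.872 (0.534 to 1.42) and 0.940 (0.681 to 1.30), below B cell-like cells of every library. Before the filter the young mixed droplets stood at 3.31 (2.39 to 4.68), near the B cell-like value, and after it at 0.667 (0.138 to 2.81). Microglia- or macrophage-like cells had 3.25 (2.44 to 4.37). Set against the B cell-like level of the same library, the class II sum of old filtered endothelial-like cells was 0.291% (0.255 to 0.330) and their B cell markers 0.0156% (0.00874 to 0.0258). In old rod-like cells these were 0.0276% (0.00752 to 0.0707) and 0.0122% (0.00147 to 0.0440), whose intervals overlapped. The filter had itself removed cells by the B cell markers, so the marker value of filtered cells was partly set by it. Without the filter the class II sum and the markers were 0.301% and 0.0249% in old endothelial-like cells. They were 0.346% and 0.115% in adult and 0.110% and 0.0313% in young endothelial-like cells.

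**Figure D5:**
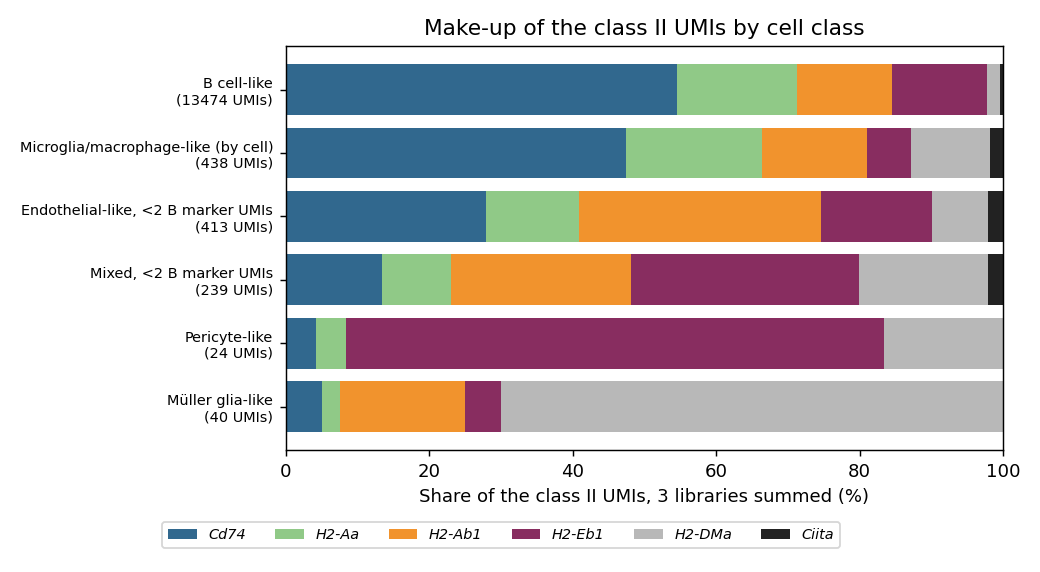
Share of each gene in the class II UMIs of 6 cell classes, summed over the 3 libraries, with the number of UMIs behind each bar. Cd74 is the largest part in B cell-like (54.5%) and microglia- or macrophage-like cells, H2-Ab1 in filtered endothelial-like cells (33.7%), H2-Eb1 in pericyte-like cells (18 of 24 UMIs) and H2-DMa in Müller glia-like cells (28 of 40 UMIs).

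Within the endothelial-like class, clusters at a finer resolution held unequal class II levels in the old library, while in the young and the adult library their intervals overlapped. The filtered cells of a cluster led by Slc38a5, Gatm and Car4, of which the amino acid transporter Slc38a5 is a gene of venous and capillary endothelium, had sums of 25 UMIs or 16.7 CPM (10.8 to 24.7), 71 UMIs or 42.4 CPM (33.1 to 53.4) and 170 UMIs or 101 CPM (86.3 to 117) in the young, adult and old library. Leading genes of this cluster also included Vwf and the interferon-stimulated genes Isg15, Ifit1 and Rsad2, so it was not set by vessel type alone. Their part in its class II level was not tested. A cluster led by Gkn3, Sema3g and Stmn2, of which Gkn3 and Sema3g mark arterial endothelium, had 12.9 (6.69 to 22.6), 39.6 (28.3 to 54.0) and 34.3 CPM (24.9 to 46.0), the last 2 of which overlapped. The remaining cluster, led by Cxcl12, Vwa1 and Rgcc, had 8.77 (3.53 to 18.1), 20.2 (10.5 to 35.3) and 51.7 CPM (35.4 to 73.0). In the old library the level of the Slc38a5-led cells thus lay above both other clusters. The shares of old cells with a class II UMI, 26.6, 19.8 and 16.2% in the Slc38a5-, Gkn3- and Cxcl12-led cells, had intervals that overlapped.

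Endothelial-like cells with at least 2 class II UMIs were set beside cells with none, among filtered cells of 5000 UMIs or more. There were 5 and 252 such cells at 3 months, 17 and 215 at 12 months and 36 and 242 at 23 months, and the compared genes were picked after values had been seen. Vcam1, an adhesion molecule for leukocytes, was 11.1 times (8.0 to 15.3) higher at 3 months, 5.47 times (4.37 to 6.84) at 12 months and 3.56 times (3.00 to 4.23) at 23 months in the cells with class II UMIs. Cldn5 differed by 1.13, 1.03 and 1.12 times, but by 1.37 (1.25 to 1.5) in old Gkn3-led cells. Vwf, the von Willebrand factor gene, was at 0.789 (0.428 to 1.34), 1.23 (0.971 to 1.54) and 2.15 (1.86 to 2.49). Within the Slc38a5-led cluster, of which Vwf is a leading gene, it was 1.30 (1.00 to 1.68) at 12 months and 1.93 (1.63 to 2.28) at 23 months. Within the Gkn3-led cluster it was 0.816 (0.463 to 1.35) and 1.16 (0.725 to 1.77). Over all clusters, the MHC class I genes H2-K1 and H2-D1 were higher by 1.92 and 2.24 times at 3 months in the cells with class II UMIs. They were higher by 1.25 and 1.27 times at 12 months and by 1.27 and 1.21 times at 23 months. In Gkn3-led cells H2-K1 was at 1.11 (0.878 to 1.38) at 12 months and 1.49 (1.29 to 1.72) at 23 months. B2m, the light chain of class I, was at 1.81 (1.49 to 2.18), 0.898 (0.785 to 1.02) and 1.17 (1.09 to 1.25), and at 0.809 (0.652 to 0.996) in adult Gkn3-led cells. Icam1, another adhesion molecule, had 28 and 60 UMIs in adult cells with and without class II UMIs, a ratio of 3.62 (2.23 to 5.76), and 2.07 (1.23 to 3.40) in old cells, but 0.555 (0.0138 to 3.23) in the young. Within the Slc38a5-led cluster it was 4.36 (2.58 to 7.27) at 12 months and 1.65 (0.953 to 2.81) at 23 months, and within the Gkn3-led cluster 0.450 (0.0107 to 2.90) at 12 months, with 0 UMIs in the class II cells at 23 months. Depth differed between the sides, with median UMI counts of 12697 against 8016, 14833 against 7618 and 11954 against 8456, and its part was not tested. Within the Slc38a5-led cluster the Vcam1 ratio was 5.03 (3.71 to 6.81) at 12 months and 4.15 (3.34 to 5.18) at 23 months, and within the Gkn3-led cluster 4.69 (3.33 to 6.57) and 1.37 (0.869 to 2.07).

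In pericyte- and Müller glia-like cells the class II sum was low and rested mostly on single members. Pericyte-like cells held 10 UMIs or 14.3 CPM (6.86 to 26.3) at 3 months, 5 UMIs or 9.16 CPM (2.97 to 21.4) at 12 months and 9 UMIs or 18 CPM (8.23 to 34.2) at 23 months, all overlapping. The I-E chain H2-Eb1 gave 7, 3 and 8 of these UMIs, in 15 cells, and H2-Ab1 gave 0. Over the libraries H2-Eb1 lay 10.8 times (2.58 to 95.9) above rod-like cells, whereas Cd74 had 1 UMI. The 9 B cell markers gave 0, 2 and 0 UMIs in pericyte-like cells. In the filtered mixed endothelial-pericyte droplets H2-Eb1 had 16, 28 and 32 UMIs, the most of any member at 3 and 12 months, while H2-Ab1 had 35 at 23 months.

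Müller glia-like cells, the main glia of the retina, held 9 UMIs or 5.44 CPM (2.49 to 10.3), 20 UMIs or 10.3 CPM (6.27 to 15.8) and 11 UMIs or 7.13 CPM (3.56 to 12.8), and old over young the ratio was 1.31 (0.494 to 3.58). This ratio was 13.1 with called doublets kept, 4.12 after thinning and 0.115 once the rod-like level had been subtracted. The peptide exchange gene H2-DMa gave 7, 15 and 6 of these UMIs, 28 of 40 in all, in 27 cells, and Cd74 gave 0, 1 and 1. Rod-like cells had no H2-DMa UMI, so the Müller glia-like level of 5.44 CPM (3.61 to 7.86) lay above the level that 3 UMIs would give in them, 1.43 CPM, and above the exact upper limit of their 0, 1.76 CPM. Its partner chain gene H2-DMb1 gave 7, 7 and 7 UMIs in Müller glia-like cells and 0 in rod-like cells. Rod-, cone-, bipolar- and amacrine-like cells together held 3, 16 and 13 class II UMIs, or 1.29 (0.265 to 3.76), 5.12 (2.93 to 8.32) and 5.62 CPM (2.99 to 9.62). H2-DMa gave 5 of 17 UMIs in bipolar-like, 3 of 4 in cone-like and 4 of 5 in amacrine-like cells, the last at 11.6 CPM.

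The share of cells with a Cd74 UMI was compared after each cell had been thinned to 2000 UMIs and shallower cells left out (12, 25 and 5 endothelial-like and 61, 105 and 95 rod-like cells). In endothelial-like cells the share was 0.235% (0.00594 to 1.30) at 3 months, 1.5% (0.554 to 3.24) at 12 months and 3.02% (1.57 to 5.22) at 23 months, and in rod-like cells 0% (up to 2.86% with 3 cells), 0.461% (0.0117 to 2.54) and 0.699% (0.0177 to 3.83). All 3 pairs of intervals overlapped, so the share alone did not separate endothelial-like from rod-like cells at this depth. Without thinning the endothelial-like shares were 0.685, 3.77 and 7.71% at median depths of 5661, 6028 and 7521.5 UMIs, and the rod-like shares 0, 0.311 and 0.420% at 2287, 2425.5 and 2152.5 UMIs. For any class II UMI the thinned shares were 2.11, 5.26 and 9.07% in endothelial-like and 0, 0.461 and 0.699% in rod-like cells, which did not overlap in the adult (3.29 to 7.93 against 0.0117 to 2.54) and old libraries (6.43 to 12.3 against 0.0177 to 3.83).

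Of 35 further genes of the class II pathway found in the matrices, 20 had at least 20 UMIs in both the young and the old filtered endothelial-like cells, a stricter limit than the 20 UMIs over both libraries used above, and one that no member met. Old over young, 4 of them lay above 1 by their intervals and 1 below, against 11.1% and 7.29% of 9062 genes, with a median ratio of 1.00. Adult over young 1 lay above and 0 below, against 8.58% and 2.8% of 9030 genes, with a median of 1.02. Not all of these genes are named here. Socs1, an inhibitor of cytokine signalling, had 27, 34 and 50 UMIs and a ratio of 1.66 (1.02 to 2.76) old over young. Among the endosomal proteases, Ctsd had a ratio of 1.5 (1.29 to 1.74) and Ctsb of 1.30 (1.14 to 1.49), while Ctsl, at 0.869 (0.771 to 0.981), lay below 1. The factors that act with Ciita at the promoter did not differ by their intervals: Rfx5 had 30, 39 and 31 UMIs, Rfxap 178, 165 and 175, Rfxank 43, 45 and 49, and Nfya, Nfyb and Nfyc ratios of 0.980, 1.02 and 0.950. The receptor genes Ifngr1 and Ifngr2 had ratios of 1.19 (0.991 to 1.43) and 0.794 (0.555 to 1.13), and Irf1, which interferon gamma induces, 1.05 (0.883 to 1.24). Cd40, a receptor for help from T cells, had 71, 71 and 74 UMIs.

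Some pathway genes with lower counts are named after their values were seen. H2-DMb1, whose product pairs with that of H2-DMa, had 3, 9 and 22 UMIs in filtered endothelial-like cells, a ratio of 6.58 (1.98 to 34.3). Whether all of its reads can be told apart from those of its near copy H2-DMb2 was not tested. Nlrc5, the transactivator of MHC class I genes, had 16, 10 and 50 UMIs and a ratio of 2.80 (1.57 to 5.27). The genes of the H2-DM modulator, H2-Oa and H2-Ob, and H2-DMb2 were found mostly in B cell-like cells. H2-Oa had 0 UMIs in filtered endothelial-like cells against 11, 58 and 54 in B cell-like cells. In the same order H2-Ob had 5, 7 and 9 against 17, 101 and 99, and H2-DMb2 0, 1 and 0 against 15, 146 and 115. Droplets with B cell transcripts had already been left out of these endothelial-like cells. The co-stimulatory genes Cd80 and Cd86 had 1 and 0 UMIs in filtered endothelial-like cells of all libraries. Ifng, the gene of interferon gamma itself, had 0 in filtered endothelial-like cells and in B cell-, rod- and Müller glia-like cells.

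Among 13077 genes ranked by how closely their level followed the class II sum over 31 sums of a class and a library, the nearest were Sfn, Casp1, Gimap4, Dusp2 and Cd79a, with Pearson correlations of 0.982, 0.980, 0.978, 0.972 and 0.969. The sums share libraries and depth, and the values are a description dominated by the high level of B cell-like cells. Cd79a, a B cell gene, had 24 and 11 UMIs in adult and old endothelial-like cells.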

How the data were processed

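The authors deposited unnormalised UMI counts for every barcode and gene, from Cell Ranger 6.1.2 on mm10; no column of another sample was present. The 3 libraries were grouped by the age in their labels. Barcodes with 500 to 6000 genes and 1 to 20% mitochondrial UMIs were kept, doublets were called with Scrublet (scanpy 1.11.5; 7, 17 and 16 cells, 0.741% of cells), and cells were integrated and clustered in Seurat 5.3.0 (R 4.3.3; 2000 features, 30 components, resolution 0.5) with the class II and pathway genes kept out of the features. A marker counted in a cluster where at least 20% of cells and 25% of its highest cluster level carried it; a name needed 3 markers, those meeting 50% or more of the marker sets of several classes were called mixed (pericytes with smooth muscle were named by their leading genes, and T cells with macrophages were typed cell by cell), and a cluster under 33.3% of its library's median UMIs without own markers among its leading genes was left unnamed. UMIs were summed per class and library. Poisson, conditional ratio and Clopper-Pearson intervals (95%, scipy 1.17.1) cover counting error only and were tested on simulated data; a 0 is given with the level of 3 counts. A gene was called higher at 1.5 times or more with at least 20 UMIs over both libraries. The likeness ranking used log2 of CPM plus 10. Named were the 6 members, pathway genes with at least 20 UMIs in each library of the endothelial or B cell class, the 5 nearest genes and others said to be chosen later; some genes the rule covers are not reported here. The members, lists and naming thresholds were chosen with earlier results of these data known. Alternatives were other thresholds, thinning, doublets kept, other class definitions and other backgrounds. Cells were called by the authors with Cell Ranger, with settings not given in the sources used here, and the cell number their methods state is lower than the number of deposited barcodes.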

Additional observations from a re-analysis of the deposited data

Results flagged for a closer look

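The class II sum moved in opposite directions in a pair of classes. Old over young it was 3.01 in endothelial-like and 0.427 in mixed endothelial-pericyte cells, and adult over young 3.22 and 0.468; the difference between the classes was not tested, and without droplets of 2 or more B cell marker UMIs both ratios lay above 1.

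Class II signal above that of rod-like cells of the same library was also found in barcodes left out of the cell classes. Barcodes with fewer than 500 genes gave 28.2 CPM in the young library, 19 of 20 UMIs from 1 barcode, and 26.7 CPM in the old library, 24 UMIs from 14 barcodes. Barcodes with more than 6000 genes gave 57.0 CPM at 3 months, 61.3 at 12 months and 115 at 23 months. Old barcodes with under 1% mitochondrial UMIs gave 451 CPM, 145 of 160 UMIs from 1 barcode. Called doublets gave 1749.8 CPM at 12 months and 1469.7 CPM at 23 months, from 3 barcodes each, all with 2 or more B cell marker UMIs.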

How the results depend on the processing

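Of 82 alternatives over 9 results, 59 moved within the counting interval, 19 moved further and 4 turned a value whose interval had lain on one side of 1. Of the ratios, 16 alternatives lay on the other side of 1 from the value reported, 5 of them within the interval and 7 of them further off. For the endothelial-like class II sum, leaving out cells with 2 or more immune marker UMIs gave 4.24 old over young, 2.30 adult over young and 1.84 old over adult. Thinning each cell gave 5.37 old over young and 1.72 old over adult. Counting mixed cells as endothelial gave 0.920 old over young and 0.963 adult over young, and doing so without cells of 2 or more B cell marker UMIs gave 4.60 old over young and 1.85 old over adult. Leaving those cells out of the class alone gave 5.01 and 1.83, and leaving out the cell with the most class II UMIs in each library 4.86 and 1.59; these last 3 alternatives were chosen after seeing the data. The mean over cells gave 2.07 adult over young and 1.62 old over adult. With barcodes of fewer than 500 genes as background, old endothelial-like cells stood at 2.66 times and young ones at 0.834 times it, and thinned young cells at 0.986 times the level of 3 UMIs in rod-like cells. The Müller glia-like ratio was 13.1 with doublets kept, 4.12 thinned and 0.115 with the rod-like level subtracted, and all 8 alternatives for pericyte-like cells stayed within the interval. The B cell-like ratio was 1.02 with doublets kept. The old Cd74 share was 7.71% unthinned. The causes were not tested. A mean over cells against young rod-like cells, all at 0, gave no value. No paired analysis was possible because each age has 1 library, and for the same reason none could be left out.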
